A study of Homo sapiens with 2 samples.

Results

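Distal accessible regions of H1 human embryonic stem cells were joined into runs wherever neighbours lay at most 5 kb apart, end to start, and runs of at least 8 regions were kept as dense clusters. A region was distal where its strongest summit, the base with the highest enrichment, lay more than 1 kb from the 5′ end of any annotated gene. The rule found 23 clusters with 204 regions, out of 160327 regions in the deposited list and 139350 distal regions. The clusters were chosen by the measured positions of the regions, so their number, size and density are a description. The assay was ATAC-seq, whose transposase cuts and tags DNA where chromatin is open. H1 is an established pluripotent line, and the labels name no genetic change or drug. The cells were thawed from frozen storage, and DNase I was applied to digest DNA from dead cells before Ficoll purification and the Omni-ATAC procedure. The 2 samples form a single group, and the labels do not say whether they came from separate cultures. They share 1 deposited list of 236878 summits, so no value below has a replicate error, and read depth was not analysed here. A region lay within 1 kb of the 5′ end of 27 of 32 core pluripotency genes, POU5F1 (fold 5.54), SOX2 (4.69) and NANOG (8.26) among them, against 71.4% of all protein-coding genes. The mesoderm list had 36 of 38 and the neuroectoderm list 53 of 66, whereas the liver list had 7 of 23, so open promoters alone do not set pluripotency genes apart.

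A gene can be controlled by many separate stretches of regulatory DNA, such as enhancers and insulators, that lie away from its start and open when proteins displace nucleosomes there. In pluripotent cells many genes that act later in development are held silent in a poised state, with CpG-rich DNA bound by Polycomb proteins over long stretches around them. Accessibility alone does not separate an active element from a poised or insulating one, and the list carries no mark of activity.

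The sequences below, each from the strongest region of a cluster, differed widely in CpG content and do not stand for the other members. Each runs 5′ to 3′ on the hg38 forward strand, from 50 bases before to 50 after the strongest summit of a cluster. The first 8 belong to the clusters with the most regions, with the longer span taken first among equals, which left out TFAP2B with its 9 regions, and the SP8 sequence was added after its values were seen as the cluster with the highest covered share. Capitals mark CpG dinucleotides, the bases at which human DNA is mainly methylated. The positions are chr15:96345679-96345779 for NR2F2, chr5:107572199-107572299 for EFNA5, chr5:93607894-93607994 for NR2F1, chr6:90485020-90485120 for MAP3K7 and chr6:107601095-107601195 for SOBP. Those for the others are chr3:147384889-147384989 for ZIC1, chr12:79374046-79374146 for SYT1, chr4:173536992-173537092 for HAND2 and chr7:20778153-20778253 for SP8. The windows near ZIC1 and SP8 held 9 and 13 CpG, and those near MAP3K7, SOBP and NR2F1 held 2, 1 and 1. The whole region around the HAND2 window had an observed to expected CpG ratio of 0.342, the lowest in its cluster (median 0.557). That of EFNA5 had 0.465, the highest in its cluster (median 0.223).
NR2F2: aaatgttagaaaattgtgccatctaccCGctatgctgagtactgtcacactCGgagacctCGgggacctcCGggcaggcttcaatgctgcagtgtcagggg
EFNA5: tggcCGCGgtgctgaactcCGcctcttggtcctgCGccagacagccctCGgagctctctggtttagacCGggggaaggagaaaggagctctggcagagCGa
NR2F1: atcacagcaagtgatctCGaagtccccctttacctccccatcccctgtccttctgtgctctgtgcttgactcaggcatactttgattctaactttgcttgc
MAP3K7: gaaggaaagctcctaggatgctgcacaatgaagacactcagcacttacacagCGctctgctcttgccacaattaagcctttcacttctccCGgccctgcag
SOBP: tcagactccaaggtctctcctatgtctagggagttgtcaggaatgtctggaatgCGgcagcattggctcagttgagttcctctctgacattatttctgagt
ZIC1: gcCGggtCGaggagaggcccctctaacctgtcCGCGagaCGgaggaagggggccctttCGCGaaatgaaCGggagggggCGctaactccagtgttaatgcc
SYT1: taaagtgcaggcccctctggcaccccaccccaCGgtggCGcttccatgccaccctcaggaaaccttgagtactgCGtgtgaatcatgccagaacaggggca
HAND2: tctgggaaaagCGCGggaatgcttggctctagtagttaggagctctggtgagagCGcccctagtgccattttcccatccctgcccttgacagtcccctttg
SP8: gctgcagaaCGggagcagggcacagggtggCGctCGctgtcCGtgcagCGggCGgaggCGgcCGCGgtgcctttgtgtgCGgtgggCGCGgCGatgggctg

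A pair of clusters lay in short tandem repeats. The next sequences are their strongest summits, shown for that reason after the values were seen, with the 5-base unit GGAAT, or its reverse complement ATTCC, in capitals. The first has its summit 18481 bp from the 5′ end of the immunoglobulin segment IGKV2D-40 (chr2:89833260-89833360) and held 15 whole units. The second lies on chromosome 16 (chr16:34581421-34581521) and held 4.
IGKV2D-40: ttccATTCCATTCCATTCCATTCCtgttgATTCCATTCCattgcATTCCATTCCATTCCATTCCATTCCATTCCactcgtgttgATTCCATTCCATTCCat
chromosome 16: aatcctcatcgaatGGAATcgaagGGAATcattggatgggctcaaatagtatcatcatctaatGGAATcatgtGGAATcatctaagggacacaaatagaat

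The clusters were rare and compact. They held 0.146% of distal regions (95% exact binomial interval 0.127 to 0.168, counting error only), whereas 52.8% of distal regions had no neighbour within the joining distance. There were 14 clusters of 8 regions, 3 of 9, 3 of 10, 2 of 11 and 1 of 13. Their spans had a median of 22.4 kb and ran from 9.55 to 36.7 kb, and regions covered a median of 16.6% of a span (11.9 to 39.5%). Distal regions as a whole covered 2.18% of the chromosomes. The 181 gaps between neighbours had a median of 2146 bp. Of these gaps 63 (34.8%) were under 1 kb and 34 (18.8%) over 4 kb, and in 15 clusters the longest gap exceeded 4500 bp, close to the joining limit. The map of regions along each cluster shows these spacings.

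**Figure D1:**
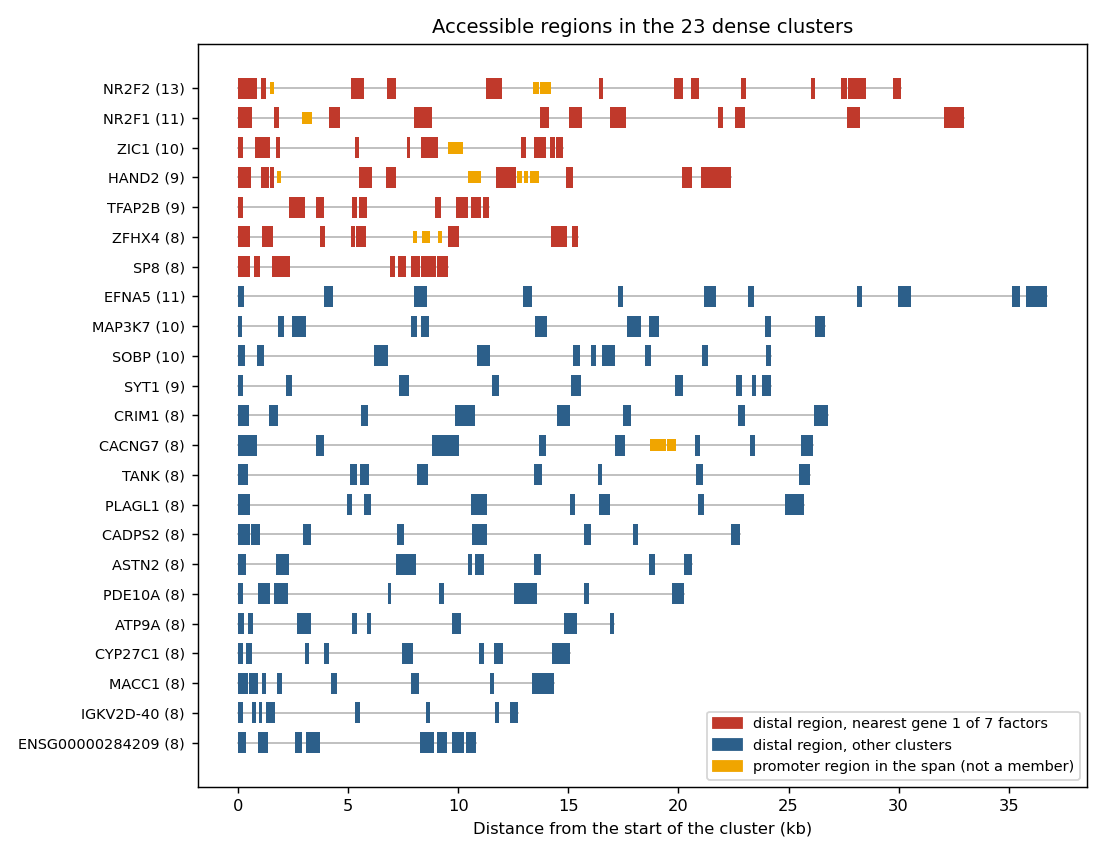
Regions of the 23 dense clusters drawn to scale against the distance from the cluster's start in kb, with the number of member regions in brackets. Wide bars are member regions (red where the nearest protein-coding gene is 1 of the 7 transcription factor genes described in the text, blue elsewhere) and low yellow bars are promoter regions inside the span, which are not members. The spans run from 9.55 kb near SP8 to 36.7 kb in EFNA5, and 6 clusters have promoter regions inside them.

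The clusters lay on 13 chromosomes, with 5 on chromosome 6, 4 on chromosome 2, 3 on chromosome 7 and 2 on chromosome 5. Of the 23 clusters 10 lay wholly within a protein-coding gene, 7 overlapped one in part and 6 overlapped none. The nearest protein-coding 5′ end lay inside the span in 5 clusters and more than 50 kb away in 11. Among the 204 strongest summits 118 (57.8%) were intronic and 54 (26.5%) intergenic, against 58.7% and 34.7% of the other distal regions. A further 6 lay in coding sequence (2.94%), 11 in untranslated regions (5.39%) and 15 in other exons (7.35%). The other distal regions had 1.82%, 2.36% and 2.38%. Most clusters sat in surroundings with more regions than the genome mean. Within 250 kb on each side there was a median of 37 further distal regions (1 to 47), and 20 clusters exceeded the genome mean of 22.6 for that length. The exceptions were the 2 repeat clusters, with 1 and 2, and the cluster in ATP9A, with 16. That mean is taken over the whole length of the chromosomes, stretches without regions included. Flanks of other distal regions were not counted, so whether clusters differ from them in this was not tested.

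In 7 of the 23 clusters a gene for a developmental transcription factor was the nearest protein-coding gene, namely NR2F2, NR2F1, ZIC1, HAND2, TFAP2B, ZFHX4 and SP8. They were put together after the nearest genes were known, so what they share is a description. Their 68 regions had a median ratio of observed to expected CpG of 0.625, against 0.241 for the 136 regions of the other 16 clusters and 0.187 for distal regions outside clusters. Of the 68 regions, 38 (55.9%) had a ratio over 0.6, a level usual in CpG islands. Regions covered at least 18.6% of every one of these 7 spans (median 23.2%), against a median of 15.8% in the other clusters (11.9 to 35.4%). Gaps within them had a median over the 7 clusters of 1179 bp, against 2296 bp over the others. Their fold, which is the authors' value for the enrichment at a summit and whose background is unstated, had a median of 3.23 against 4.34. Of their summits 20 were in introns, against 98 of the other 136, and 15 were in other exons, against 0. Many summits of the factor clusters, but few of the others, lay between 1 and 5 kb from an annotated 5′ end. The distances were 1078 to 4868 bp at ZIC1 but 6103 to 17247 bp at TFAP2B. Elsewhere they were 98688 to 134948 bp in EFNA5 but 1042 to 14015 bp at CACNG7. None of the contrasts above was adjusted for this distance.

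The cluster with the most regions lay beside NR2F2, which encodes an orphan nuclear receptor of mesenchymal, vascular and neural development (chr15:96340504-96370601). Its 13 regions spread over 30.1 kb, starting 14.6 kb from the outermost annotated 5′ end of NR2F2, and overlapped no protein-coding gene. The folds of the 13 were even, from 2.41 to 4.14 with a median of 3.25, and none reached the median of the other distal regions, 5.2. All but 3 of the regions had a CpG ratio above 0.6, and the lowest ratio was 0.42. The span also held 3 promoter regions of the long non-coding RNA genes ENSG00000259275 and ENSG00000275322, with folds of 5.95, 2.8 and 2.71. No region lay within 1 kb of the outermost 5′ end of NR2F2 itself.

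The cluster at NR2F1, the gene of the closely related receptor, held 11 regions over 33.0 kb and ran across the whole gene (chr5:93579834-93612787). Of the summits 6 were exonic, 2 of them in coding sequence, 4 were intergenic and 1 was intronic. Folds ran from 2.67 to 8.26 with a median of 4.02. The strongest, shown above, was the tenth from the left end and had a CpG ratio of 0.404, below the cluster's median of 0.646. The promoter region of NR2F1 inside the span had a fold of 3.36, lower than 6 of the 11 distal members around it.

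At ZIC1, a zinc finger gene of the neural plate that lies head to head with ZIC4, 10 regions lay within 14.7 kb and covered 24.5% of it (chr3:147383710-147398446). The folds were 3.97, 5.66, 2.09, 2.67, 2.75, 4.32, 2.04, 5.01, 2.73 and 2.11 from left to right. Their median of 2.74 was the lowest of the 23 clusters. The ZIC1 promoter region had 2.89. The HAND2 cluster (chr4:173516714-173539119) lay around the gene of a basic helix-loop-helix factor of the heart and limb and its antisense gene HAND2-AS1. Its 9 regions over 22.4 kb had folds of 5.75, 6.77, 2.32, 3.66, 2.43, 2.52, 2.11, 8.01 and 4.61, so the 4 highest lay at the 2 ends. The 3 promoter regions of HAND2 had 2.4, 2.67 and 3.7, and that of HAND2-AS1 had 3.35. A run of 7 regions, also nearest to HAND2, lay 6956 bp further left, beyond the joining distance (chr4:173489584-173509757).

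TFAP2B and SP8 showed the densest packing among the factor genes. The TFAP2B cluster, at a factor gene of the neural crest, had 9 regions in 11.4 kb that covered 30.2% of it (chr6:50840294-50851690). It lay at the 3′ end of the gene, 21.6 kb from its outermost 5′ end, with 2 summits in introns, 3 in untranslated sequence and 4 beyond the gene. Folds ran from 2.26 to 7.41 with a median of 2.92. The SP8 cluster, at a zinc finger gene of limb outgrowth, had 8 regions in 9.55 kb, the shortest span, and covered 39.5% of it (chr7:20776299-20785846). Its median CpG ratio was 0.732 and its folds were 7.29, 2.57, 8.55, 2.69, 3.3, 2.24, 2.89 and 3.33. The values of 7.29 and 8.55 lay at the far end from the start of SP8, which was 1.04 kb outside the cluster with a promoter fold of 4.61. The span also overlapped ABCB5. The region of 7.29 had its summit in untranslated sequence, separated from SP8 by intergenic summits, and that of 8.55 was intergenic.

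ZFHX4, a zinc finger homeodomain gene on chromosome 8, had a cluster of 8 regions over 15.4 kb, with its 5′ end inside. Folds ran from 1.85, the lowest of all 204 members, to 10.5, with a median of 3.22. The strongest of the 3 ZFHX4 promoter regions had 7.84, the highest fold among the 15 promoter regions inside the clusters. Those 15 had a median fold of 2.89, against 7.58 for all 20977 promoter regions of the list and 8.61 for the 14251 of protein-coding genes.

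Several of these clusters depended on which starts counted as promoters. When the starts of all annotated transcripts were used, 8 of the 23 clusters no longer reached the minimum, among them those at NR2F1, ZIC1, HAND2 and ZFHX4. With a promoter distance of 2 kb 7 were lost, 5 of them at factor genes. The clusters near NR2F2 and TFAP2B were kept under both.

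The remaining clusters had most of their summits in introns, 98 of 136, and a lower CpG ratio than the factor clusters, though at 0.241 it was above that of other distal regions. The longest span of all, in EFNA5, which encodes an ephrin ligand of axon guidance, held 11 intronic regions over 36.7 kb (chr5:107535867-107572605). From left to right their folds were 2.87, 3.35, 4.5, 3.91, 2.93, 7.54, 8.41, 3.28, 9.57, 2.47 and 13.5. The last was the strongest and the most CpG-rich, with a ratio of 0.465 against a cluster median of 0.223. The nearest 5′ end was that of EFNA5, 98.3 kb away.

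An intergenic cluster whose nearest protein-coding start was that of MAP3K7, a kinase of TGF-beta and inflammatory signalling 83.8 kb away, had the highest median fold (chr6:90476577-90503244). Its 10 regions had 3.56, 4.84, 10.4, 2.61, 11.7, 7.93, 7.68, 8.5, 3.69 and 7.22, with a median of 7.45. It and the cluster in CADPS2, a gene of vesicle release (median 5.32), were the only 2 of 23 whose median exceeded that of other distal regions. The median −log10 p of the MAP3K7 cluster, 85.6, was also the highest. Its CpG ratio was low, at 0.231. The plot of folds by cluster shows the spread within each.

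**Figure D2:**
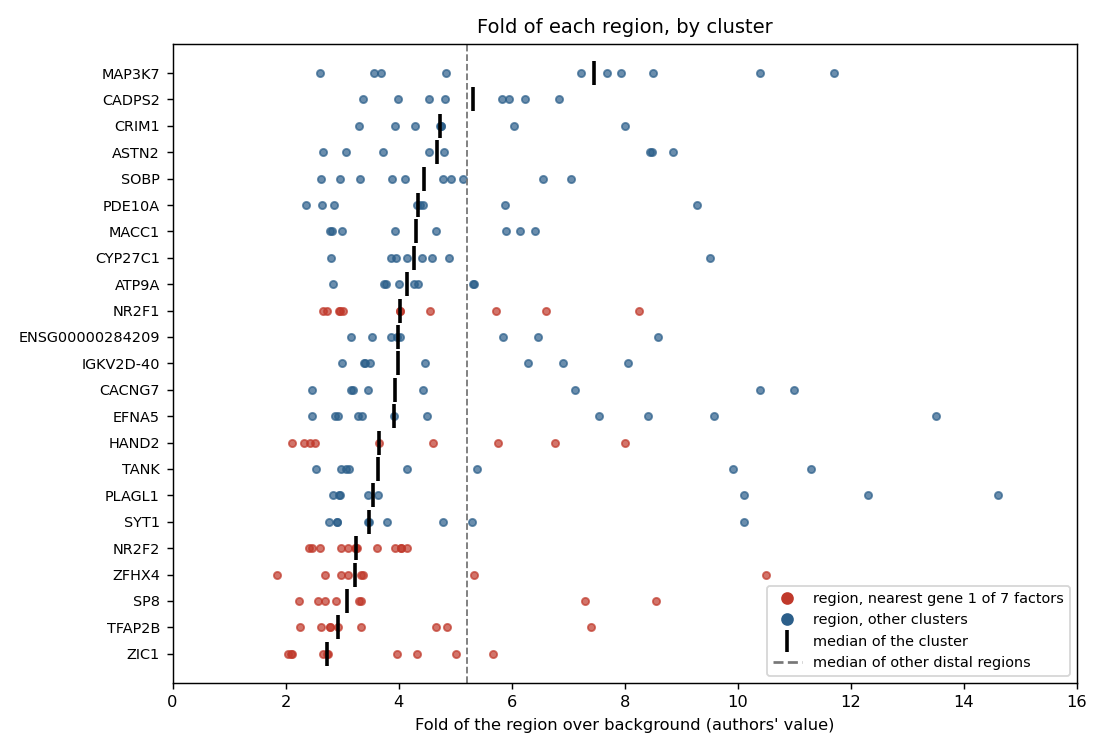
Fold over background (authors' value) of each of the 204 regions, 1 row per cluster, ordered by cluster median (black tick), with red points for clusters nearest to the 7 transcription factor genes. The dashed line is the median of distal regions outside clusters, 5.2, and only the medians of MAP3K7 (7.45) and CADPS2 (5.32) lie to its right.

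Several other clusters lay in introns. A cluster in SYT1, a calcium sensor of synaptic vesicles, held 9 regions over 24.2 kb (chr12:79351349-79375533), of which 1 stood out with a fold of 10.1 where the other 8 ran from 2.77 to 5.29. The protein-coding 5′ end nearest to it belonged to PAWR, a pro-apoptotic gene, 315.4 kb away. SOBP had 10 intronic regions over 24.2 kb with a median fold of 4.45 and a CpG ratio of 0.164 (chr6:107600162-107624368). In ASTN2, a gene of neuronal migration, the cluster lay 1.49 kb from the nearest 5′ end, and its first 3 regions had 8.49, 8.45 and 8.86 where the other 5 had 2.67 to 4.8 (chr9:117392982-117413580). CADPS2 had 8 regions with folds from 3.37 to 6.83 and a low CpG ratio of 0.114, and the nearest 5′ end was that of RNF148, 33.1 kb away (chr7:122736029-122758802). PDE10A, a phosphodiesterase gene of the striatum, had 8 regions over 20.3 kb with a highest fold of 9.27 (chr6:165841380-165861638).

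A few strong regions stood among weaker ones in PLAGL1 and near TANK. PLAGL1, an imprinted zinc finger gene, held the strongest member of all, with a fold of 14.6, beside others of 10.1, 2.94, 2.83, 12.3, 2.96, 3.63 and 3.45 (chr6:143948189-143973886). The protein-coding 5′ end nearest to this cluster belonged to ZC2HC1B, 83.8 kb away. The cluster nearest to TANK, an adaptor of innate immune signalling 217.5 kb away, had 9.91 and 11.3 where its other 6 regions ran from 2.54 to 5.39 (chr2:160893451-160919410). It had the lowest covered share, 11.9%. In CRIM1, whose membrane protein binds BMPs, 8 intronic regions over 26.8 kb had folds from 3.3 to 8.01 and a CpG ratio of 0.18 (chr2:36366489-36393301). ATP9A, a lipid flippase gene, had folds within a narrow range, from 2.84 to 5.33 (chr20:51695662-51712733). The cluster in CYP27C1, a cytochrome P450 gene, ran from 2.81 to 4.89 apart from 1 region of 9.5 at its right end (chr2:127193983-127209039). The one nearest to MACC1, 90.3 kb away and in introns of non-coding genes, had the lowest CpG ratio, 0.0792, and folds from 2.78 to 6.42 (chr7:20112717-20127078).

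The 2 repeat clusters stood apart in sequence. Near IGKV2D-40 the 8 regions had a median of 12.7 GGAAT or ATTCC units per 100 bases (chr2:89827890-89840594), and on chromosome 16 the 8 regions had 4.25 (chr16:34572947-34583757). Distal regions outside clusters had a median of 0.214 and a 99th percentile of 1.13. On chromosome 16 all 8 regions had 2 to 5 other copies in the genome, counted at 90% identity or more over at least 80% of their length. Near IGKV2D-40 3 of 8 had copies, up to 31. Only 1 other member, in the MACC1 cluster, had any. Reads from such copies may be placed wrongly, and their treatment in the list is not stated. The nearest protein-coding starts were RPIA, 1136.2 kb away, and ENSG00000284209, 191.8 kb away. The chromosome 16 cluster had the highest CpG ratio of all, 1.2, and a covered share of 35.4%. Without regions that have copies, 20 clusters remained, and those near IGKV2D-40, MACC1 and on chromosome 16 were lost.

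Across the 204 regions the fold was lower than elsewhere but the −log10 p was not. The median fold was 3.96 (10th to 90th percentile 2.63 to 8.44), against 5.2 (3.2 to 11.3) for the 139146 other distal regions, and 146 members (71.6%) lay below that 5.2. Median −log10 p was 25.8 against 25.1. Members were narrower, with a median width of 373.5 bp against 423 bp, and 156 (76.5%) had a single summit, against 74.4%. The width was not particular to the clusters, as the median was 370 bp in runs of 7 and 450 bp for single regions. The strongest member of a cluster is the highest of at least 8 values, so it tends to exceed a median by construction. In 22 of 23 the strongest member exceeded 5.2, NR2F2 being the exception, and in 15 it was more than double the cluster's own median. The strongest member was at an end of the cluster in 8 of the 23. Some would lie there by position alone, and the count was not tested against that.

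The fold was lower and the CpG ratio higher in runs with more regions, with the fold in runs of 7 the only step against that order. Median fold was 5.63 for single regions, 4.98 in pairs, 4.6 in runs of 3, 4.36, 4.23, 4.06 and 4.17 in runs of 4, 5, 6 and 7, and 3.96 in the dense clusters. The median CpG ratio was 0.183 for single regions, 0.21 in runs of 5, 0.284 in runs of 7 and 0.346 in the dense clusters. Regions with a ratio over 0.6 made up 4.15% of single regions, 11.8% of runs of 5, 23.3% of runs of 7 and 25.0% of the clusters. The −log10 p showed no such order, at 26.3 for single regions, 23.7 in runs of 3, 28.5 in runs of 7 and 25.8 in the clusters. Just outside the rule were 43 runs of 7 regions, with a median span of 15.5 kb, a covered share of 20.2% and a median fold per run of 4.29. Just inside it, the 14 runs of 8 had 16.2% and 4.07. The fold and the CpG ratio of the clusters lay nearer to those of the runs of 7 than to those of single regions.

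**Figure D3:**
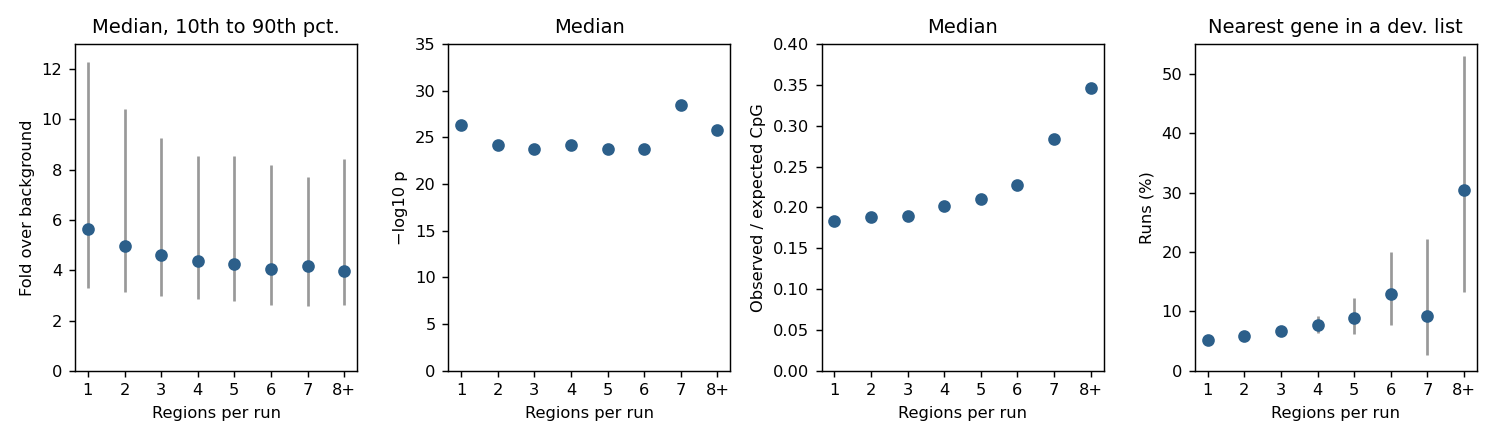
Values of distal regions by the number of regions in their run: fold over background with its 10th to 90th percentile, −log10 p, observed over expected CpG (medians), and the share of runs whose nearest protein-coding gene is in a developmental or signalling list with its 95% exact binomial interval. Fold goes from 5.63 for single regions to 3.96 in the dense clusters (8+), the CpG ratio from 0.183 to 0.346, and −log10 p shows no order.

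The lower fold was not limited to a CpG class. Among regions with a ratio over 0.6, the 51 members had a median fold of 3.45, against 5.55 for the 6784 other distal regions and 7.16 for the 3055 single ones. These CpG-rich members were also narrower, at 455 bp against 706 and 865 bp. At ratios up to 0.3 the 93 members had 4.37, against 5.16 and 5.54. Between those limits the 60 members had 4.0, against 5.22 and 5.72. The gap was thus widest among the CpG-rich regions, where most members lay near the factor genes. Leaving out those 7 clusters and the 2 repeat clusters, the other 14 had 120 regions with a median fold of 4.36, a CpG ratio of 0.219, and 2.5% of regions over 0.6.

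**Figure D4:**
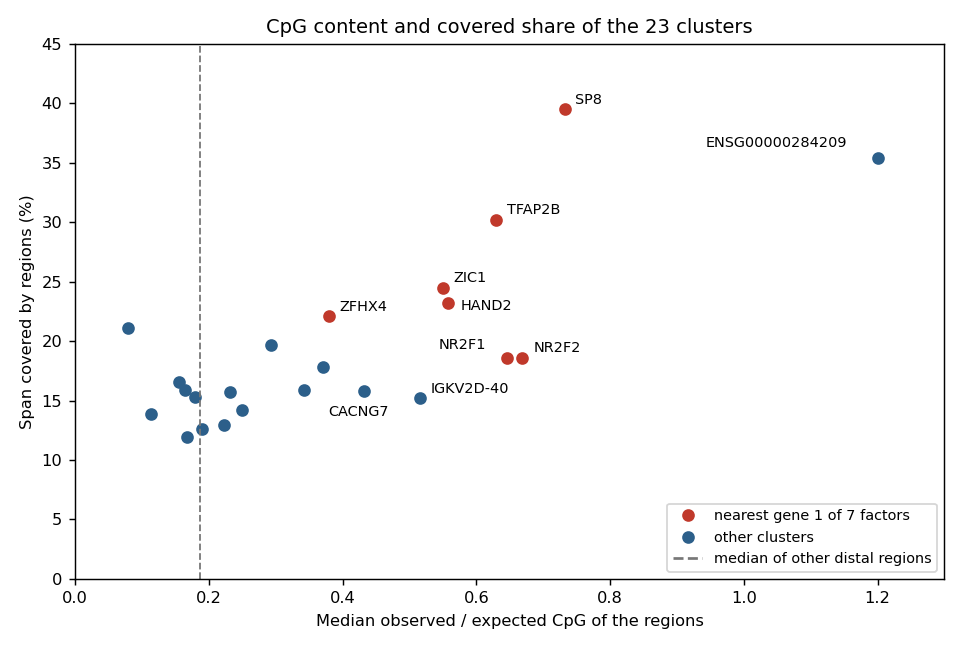
Median observed over expected CpG of the regions in each cluster against the percentage of the span they cover, with red points for the clusters nearest to the 7 transcription factor genes and a dashed line at the median CpG ratio of distal regions outside clusters, 0.187. The factor clusters lie between 0.379 and 0.732, and the repeat cluster on chromosome 16 (ENSG00000284209) lies at 1.2.

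Nearest genes were set against 25 gene lists written with earlier results of these data known. Of 20020 protein-coding genes 23, or 0.115%, were the nearest to a dense cluster. Of the 365 genes in the 13 developmental and signalling lists 7 were, or 1.92%. Neuroectoderm held 4 of its 66 genes (NR2F1, NR2F2, ZIC1 and ZFHX4), mesoderm 1 of 38 (HAND2), neural crest 1 of 20 (TFAP2B) and the BMP pathway 1 of 24 (CRIM1). None of the 32 core pluripotency genes or the 20 primed-state genes was nearest to a cluster. The endoderm list and the TGF-beta, FGF, WNT, Notch, Hedgehog and Hippo lists also held 0. Of 421 genes in the other 12 lists 1 was, EFNA5 among 64 axon guidance and adhesion genes. Lists of other tissues (blood, liver, muscle, skin, trophoblast and olfactory receptors) held 0. At the overall share of 0.115%, lists of these sizes would mostly hold 0, so a count of 0 sets none of them apart. Genes differ in how much DNA lies around them, so a share of genes is a description of place and not of regulation.

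Read by cluster, 7 of 23 (30.4%, 13.2 to 52.9) had a nearest gene in the developmental and signalling lists, against 5.8% of distal regions. The share was 5.16% for single regions, 8.94% for runs of 5, 13% for runs of 6 (7.74 to 20.0) and 9.3% for runs of 7 (2.59 to 22.1). The 4 such runs of 7 were nearest to ZFHX3, MEIS1, HAND2 and TFAP2A. The lists leave out other transcription factor genes, such as SP8 among the clusters and LHX9, NR5A2 and TFAP2D among the runs of 7. Factor genes were picked out for the clusters only and were not counted for the runs of 7. The interval of the clusters overlaps those of runs of 6 and 7, and the difference from these was not tested. With the starts of all transcripts 3 of 15 clusters (20.0%) were near a listed gene, and with a joining distance 2.5 times as long 9.1% of 1143.

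Taken 1 at a time, motif strings at the summits set the clusters little apart, though the share with any string was lower, as given below. The strings of 28 motifs were searched on both strands within 50 bp of the strongest summit. For 27 of the 28 the 95% interval of the members' share held the share of other distal regions. The exception was CACCTG, the E box bound by ZEB and SNAI repressors, in 15 of 204 members (7.35%, 4.17 to 11.8) against 12.8%, or 13.5% of other regions at the same G+C content. No adjustment for the 28 motifs was made. With 204 windows a count of 0 still allows 1.79% by the exact interval, so strings rarer than that elsewhere could not come out lower. The octamer ATGCAAAT of POU factors was in 2 members (0.98%, 0.119 to 3.5) against 2.5%, and the SOX string ACAATGG in 4 (1.96%) against 2.56%. OTX (TAATCC) was in 13 (6.37%, 3.44 to 10.7) against 3.92%, and TFAP2 (GCCNNNGGC) in 13 against 4.06%, or 5.27% at the same G+C content. The CACGTG string of MYC-type factors was in 0 of 204, which allows a share of up to 1.47% by a limit of 3 counts and 1.79% by the exact interval, against 1.22%.

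Some strings are given here separately for the factor clusters and the others, whose median G+C was 59.9% and 46.7%, and no difference between them was tested. TFAP2 matched 8 of the 68 regions near the factor genes (11.8%, 5.22 to 21.9) and 5 of the other 136 (3.68%, 1.2 to 8.37). CAGCTG, the MYOD-type E box, matched 0 of 68, which allows up to 4.41% by 3 counts and 5.28% by the exact interval, and 14 of 136 (10.3%, 5.74 to 16.7). The ZIC string CAGCAGG matched 1 of 68 (1.47%, 0.0372 to 7.92) and 12 of 136 (8.82%, 4.64 to 14.9). Other distal regions had CAGCTG in 8.81% and CAGCAGG in 9.43%, or 9.29% and 9.94% at the G+C content of the 204 members. The intervals of the other 136 held these shares, and those of the 68 lay below them. The intervals overlapped for TFAP2 and ZIC. At least 1 of the 28 strings was present in 108 of 204 member windows (52.9%, 45.8 to 59.9), against 61.2% of other distal regions and 61.5% at the same G+C content. Near the factor genes it was 28 of 68 (41.2%, 29.4 to 53.8), against 62.4% at their G+C content, and elsewhere 80 of 136 (58.8%, 50.1 to 67.2). These pairs were picked out after the values were seen, and neighbouring regions of a cluster are not independent.

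In the sequences printed above, counted from 1 at their 5′ end, SMAD (CAGACA or its complement) matched at 38 to 43 in EFNA5 and at 44 to 49 in SOBP. TEAD (ACATTCC) matched at 40 to 46 in SOBP, overlapping that SMAD string. AP-1 (TGANTCA) matched at 67 to 73 in NR2F1 and at 79 to 85 in SYT1. A TCF and LEF string (CTTTGAT) stood at 80 to 86 in NR2F1, and the SOX half-site CATTGT at 25 to 30 in MAP3K7. The windows of NR2F2, ZIC1, HAND2 and SP8 held none of the 28 strings. A match is a string of letters and not evidence of binding.

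**Figure D5:**
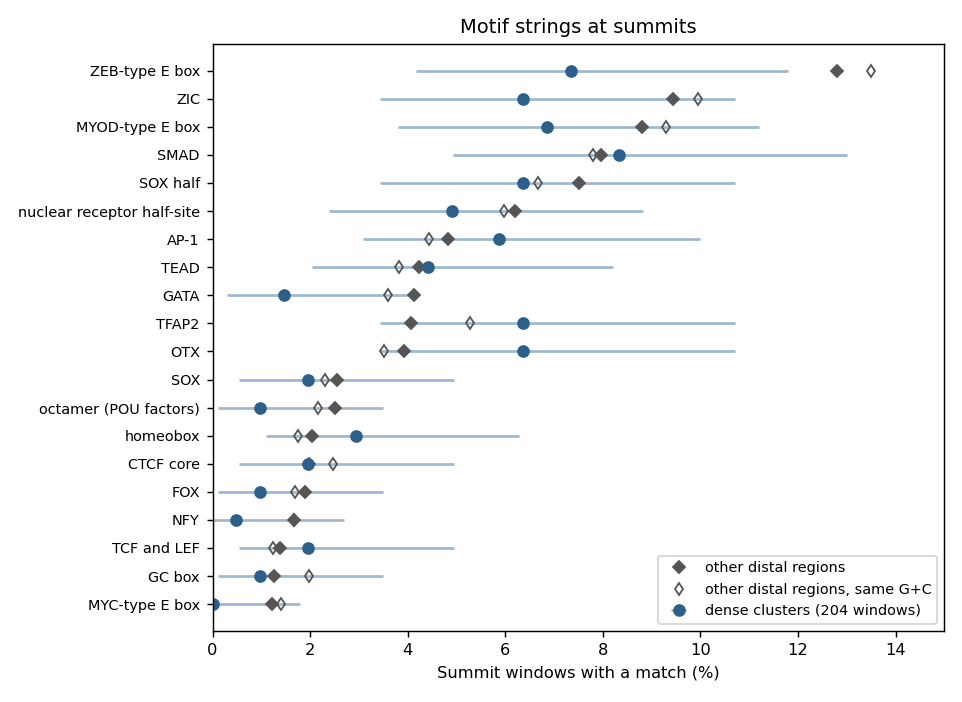
Percentage of summit windows with a match to each motif string, for the 204 regions of dense clusters (blue, with 95% exact binomial intervals), other distal regions (filled diamonds) and other distal regions weighted to the same G+C content (open diamonds), for motifs found in at least 1% of other distal regions. Only the ZEB-type E box, at 7.35% against 12.8%, has an interval that leaves out the other share.

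The clusters rest on the joining distance and on how many regions are kept. With regions joined at 2.5 kb no run reached 8 regions, the longest having 7, and with regions at or above the median −log10 p the longest had 6. That cut removes a large part of the list, which shortens runs by construction. Members had a median −log10 p of 25.8, against 25.1 for other distal regions. Whether weaker regions in particular matter was not tested, as no equal number was removed without regard to −log10 p. With a joining distance 2.5 times as long there were 1143 clusters, which took in all 204 regions.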

How the data were processed

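The authors deposited 1 narrowPeak list for both samples, with 1 row per summit. Per the submitters' processing notes the build was GRCh38. The sources used here name no aligner, peak caller or filter. The deposited fold enrichment and −log10 p are the authors' values and serve only to describe and rank regions within the list. The deposited score and −log10 q were not used.

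Rows that shared their coordinates were merged to 1 region, and its summit of highest fold stood for it. Gene ends came from GENCODE release 44. A cluster's nearest gene is the protein-coding gene whose outermost 5′ end lies nearest to its interval. The observed over expected CpG ratio used the base counts of each region. Motif strings were searched within 50 bp of that summit, and shares of other distal regions were also weighted to the members' distribution of G+C, binned by 5 points. Copies of a region were found with BLAST+ 2.17.0. Other steps used Python 3.11.15, pandas 2.3.3, scipy 1.17.1 and pysam 0.24.0, and the joining and motif search were tested on simulated data. Intervals are 95% exact binomial (Clopper-Pearson). With no values per library there was no test between samples.

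The genes named are those nearest to the 20 clusters with the most regions (ties by longer span), with the host gene where it is another, and to the 5 with the longest span, the highest covered share and the highest median fold, and listed genes nearest to a cluster. RPIA and the host genes were named after its values were seen. Members and lists were chosen with earlier results of these data known. LPHN2, an older symbol, was the only listed gene not matched. The genes at 1 of the 23 clusters are not reported here.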

Additional observations from a re-analysis of the deposited data

How the results depend on the processing

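The number of clusters depended on the rule. Against 23 clusters with 0.146% of distal regions, joining at 2.5 kb gave 0 clusters (0%), and a joining distance 2.5 times as long as 5 kb (the longer distance below) gave 1143 (8.07%). A minimum of 6 regions gave 197 (0.926%) and of 10 regions 6 (0.0466%). The starts of all annotated transcripts gave 15 (0.103%), regions at or above the median −log10 p gave 0 (0%), and joining promoter regions too gave 84 (0.483%). Promoter distances of 500 bp and 2 kb gave 0.194% and 0.103%. Requiring every summit to be distal gave 21 clusters, without those at ZIC1 and ZFHX4.

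The median span of 22.4 kb became 46.9 kb with the longer distance, 14.5 kb with a minimum of 6 regions and 28.4 kb with 10. The median covered share of 16.6% became 9.38% at the longer distance and 22.9% with promoter regions joined. The ratio of members' to other regions' median fold, 0.761, became 0.911 and 0.685 under the same settings, and stayed below 1 under all settings that left clusters. The share of clusters near developmental and signalling genes, 30.4%, became 9.1% at the longer distance and was otherwise 14.2 to 50.0%. The settings of this share beyond the first 3, and leaving out regions with copies, were chosen after seeing the data. For motifs, the NFY ratio of 0.292 became 0 without regions that have copies, from 1 matching member. The cause of these changes was not tested, beyond what each setting adds or removes by construction.

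No paired analysis was possible because both samples share 1 list with no values of their own, and for the same reason no replicate was left out. Read depth was not analysed here, so its limit on the weaker regions is unknown.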
